A study of Capitella teleta with 12 samples.

Results

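Single embryos of *Capitella teleta*, a marine annelid, were measured by CEL-Seq, and the 150 transcripts described here are those whose levels differed most between embryos of the same stage while their stage averages stayed close. The embryos numbered 4 with 8 cells, 3 with 16 cells and 5 with 32 cells. The labels give no genotype, treatment, clock time or brood for any embryo, and how many mothers the embryos came from is not given in the sources used here, so p-values measure the spread between these embryos, some of which may share a mother. The 150 were selected on the measured values themselves. Of 32415 gene models, 20716 were detected. A mean of 50 CPM or more (CPM is a count times 1000000 over the total count of its embryo) was reached by 3703 gene models, 3572 of these had no count above 0.5 of the number of distinct UMIs assumed to exist, and 2263 of these had a highest over lowest stage level under 1.5. After 4 transcripts of the transforming growth factor-β (TGF-β) pathway were left out by name, of which 2 were among the 2263, 2261 eligible transcripts remained. The 150 with the highest within-stage coefficient of variation (CV) were chosen. The CV is the square root of the mean of the 3 within-stage variances of CPM, divided by the mean CPM. The remaining 2111 eligible transcripts are called not chosen.

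*Capitella* embryos cleave spirally, so that tiers of small cells, the micromeres, are given off at an angle toward the animal pole. At these stages an embryo holds RNA laid down by the mother in the egg together with RNA made by its own nuclei, and maternal RNA is broken down at a pace that can differ from gene to gene. CEL-Seq primes reverse transcription at the poly(A) tail and tags molecules with a barcode for the embryo and a random UMI (unique molecular identifier), so a level is a number of 3′ ends and does not scale with gene length. A whole embryo was 1 library, so a transcript held by fewer cells and one held at a lower level per cell cannot be told apart.

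The chosen transcripts are named only by gene model number. Of the 150, 147 matched a locus tag of the assembly GCA_000328365.1 in the RefSeq gene table, and 0 of these had a symbol other than the locus tag, so no name or role is given to them. The list of TGF-β superfamily components of the study has 32 entries in the count table, of which 3 met the limits on level, count and stage ratio. Of these, *BMP2/4* and *SMURF* were left out by name, so that *TGF-β Receptor 1* alone could be chosen, and 0 were among the 150. *BMP3*, a ligand of the bone morphogenetic protein branch, had a CV of 0.914 but a mean of 37.1 CPM, below the minimum. Gene models of the chosen transcripts had a median length of 3267 bases (quartiles 1856 and 5688), and those of transcripts not chosen had a median of 3444 bases (quartiles 2086 and 5360).

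Embryo totals ranged from 236321 to 491733 counts. The 150 transcripts together held between 1.16% and 1.38% of the total of an embryo, which is 11613 to 13770 CPM, so their sum differed little between embryos. All 150 had a count in each of the 12 embryos, with a lowest count of 2 and a highest of 284. No embryo pair of a stage was within sampling noise of each other, since the chi-square per degree of freedom over the 19 pairs ranged from 1.81 to 3.02.

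The values that chose the transcripts are given as a description. The CV of the 150 ranged from 0.295 to 1.23 with a median of 0.333, and that of transcripts not chosen ranged from 0.0435 to 0.295 with a median of 0.17. A CV above 1 was found in 4 of the 150, above 0.5 in 16 and under 0.4 in 110, so most of them lay close to the limit. The 3 transcripts just inside it were 90257 (CV 0.2958), 148335 (0.2956) and 149684 (0.2955). The 3 just outside it were *TGF-β Receptor 1* (0.2954), a receptor of the Activin/Nodal branch named in the list of the study, 178563 (0.2937) and 171815 (0.2936). In that receptor the 8-cell embryos had 66.4, 112.6, 75.4 and 94.2 CPM, the 16-cell embryos 54.3, 61.6 and 77.3 CPM and the 32-cell embryos 50.3, 93, 70.2, 43.5 and 25.4 CPM. Its values overlapped between all 3 stages.

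Counting alone gives low transcripts a high CV, and the chosen transcripts were low. Their mean level had a median of 67.7 CPM (50 to 368.2), and 120 of them (80%) had a mean under 100 CPM. The transcripts not chosen had a median of 152.9 CPM, and 617 of them (29.2%) had a mean under 100 CPM. The CV expected from counting error at the mean and the embryo totals had a median of 0.208 in the chosen transcripts and of 0.139 in those not chosen. The measured CV was a median of 1.75 times the counting CV in the chosen transcripts (1.26 to 8.27) and of 1.23 times in those not chosen (0.435 to 4.74). Among the 150, 46 exceeded 2 times the counting CV and 50 stayed under 1.5 times.

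**Figure D1:**
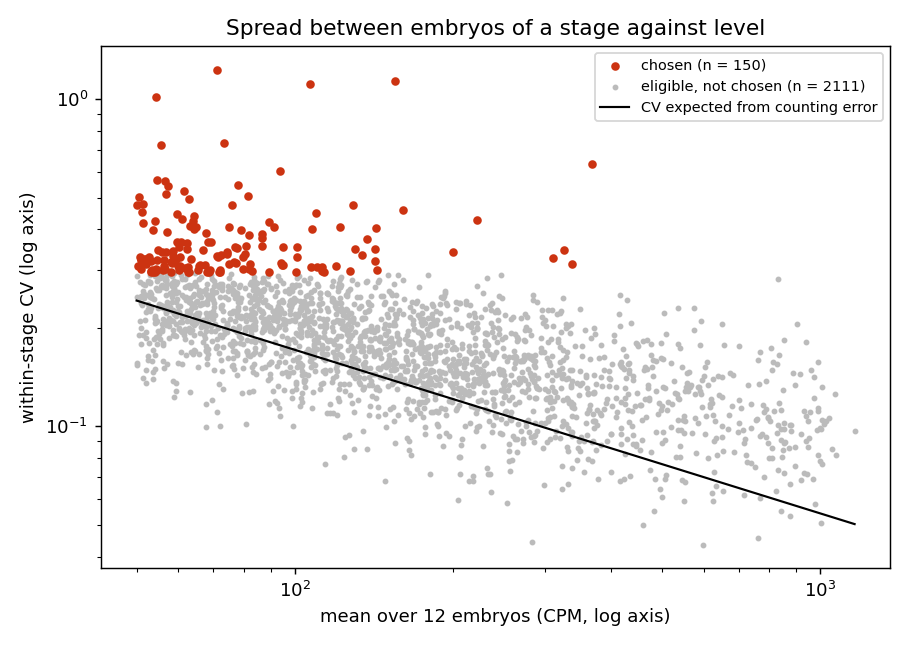
Each point is 1 eligible transcript, with its mean over the 12 embryos in CPM on a log axis and its within-stage CV on a log axis. The 150 chosen transcripts lie at a CV of 0.295 or more, mostly under 100 CPM, and the line shows the CV that counting error alone would give.

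Transcript 192289 had the highest CV, 1.23. It was at 62.9, 12.2, 15.5 and 188.3 CPM in the 8-cell embryos, at 31.9, 42.6 and 71.2 CPM in the 16-cell embryos, and at 50.3, 9.79, 39.7, 20.1 and 308.9 CPM in the 32-cell embryos. At the 32-cell stage a single embryo (replicate 5) stood far above the others. At the 8-cell stage replicate 4 was highest, but the widest fold gap lay lower, between the embryos at 15.5 and 62.9 CPM. With 1 count added to each count, that gap was 3.74-fold. The 16-cell embryos lay within 31.9 to 71.2 CPM. The 16-cell stage held 1.79% of its summed variance and the 32-cell stage 68.7%.

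Transcript 197507 (CV 1.14) was split into high and low embryos at each stage. It was at 255.1, 18.3, 6.65 and 360.4 CPM in the 8-cell embryos, at 35.1, 23.7 and 235.9 CPM in the 16-cell embryos, and at 30.2, 19.6, 30.5, 377.9 and 469.7 CPM in the 32-cell embryos. No embryo lay between 35.1 and 235.9 CPM. Behind these levels stood 73, 6, 3 and 111 counts in 8-cell, 11, 10 and 116 in 16-cell and 9, 8, 10, 113 and 111 in 32-cell embryos. With 1 count added to each count, neighbouring embryos were up to 12.1-fold, 6.21-fold and 11.4-fold apart at the 8-, 16- and 32-cell stages. The 5 embryos above that range had totals of 286145 and 307994 counts (8-cell), 491733 (16-cell), and 299026 and 236321 (32-cell). The fit on the embryo total is given with the test of depth.

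Transcript 218185 (CV 1.11) was at 6.99, 15.2, 95.3 and 276.0 CPM in the 8-cell embryos, at 277.6, 14.2 and 12.2 CPM in the 16-cell embryos, and at 127.5, 41.6, 201.5, 117.0 and 97.3 CPM in the 32-cell embryos. Its widest gap, 16.9-fold, set replicate 1 of the 16-cell stage above the other two embryos of that stage. At the 32-cell stage it varied less, with a CV of 0.493 against 1.27 and 1.51 at the 8- and 16-cell stages.

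Transcript 229004 (CV 1.02) was at 192.2, 24.4, 13.3 and 42.2 CPM in the 8-cell embryos, at 44.7, 14.2 and 59 CPM in the 16-cell embryos, and at 33.6, 19.6, 42.7, 123.7 and 42.3 CPM in the 32-cell embryos. Its CV rested on replicate 1 of the 8-cell stage, without which it was 0.679.

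Transcript 21384 (CV 0.735) was at 139.8, 33.5, 33.2 and 100.7 CPM in the 8-cell embryos, at 63.8, 11.8 and 101.7 CPM in the 16-cell embryos, and at 13.4, 58.7, 39.7, 113.7 and 169.3 CPM in the 32-cell embryos. Its highest embryos, 8-cell replicates 1 and 4, 16-cell replicate 3 and 32-cell replicates 4 and 5, were the same 5 embryos that were high in 197507.

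Transcript 199822 (CV 0.635) had the highest mean of the 150, 368.2 CPM. It was at 255.1, 438.4, 223.9 and 285.7 CPM in the 8-cell embryos, at 759.5, 267.5 and 179.0 CPM in the 16-cell embryos, and at 493.3, 694.8, 509.8, 183.9 and 126.9 CPM in the 32-cell embryos. The 2 lowest 32-cell embryos were the 2 in which 197507 was highest. Transcript 196980 (CV 0.723) was also highest in replicate 1 of the 16-cell stage, at 137.2 CPM, against 37.9 and 32.5 CPM in replicates 2 and 3. Without that embryo its CV was 0.445. Transcripts 220805, 201917 and 224690 completed the 10 highest, with CVs of 0.603, 0.566 and 0.562. Transcript 220805 was led by low rather than high embryos, with 9.74 CPM in replicate 4 of the 8-cell stage and 16.7 CPM in replicate 4 of the 32-cell stage, among values of 60.6 to 183.5 CPM elsewhere.

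**Figure D2:**
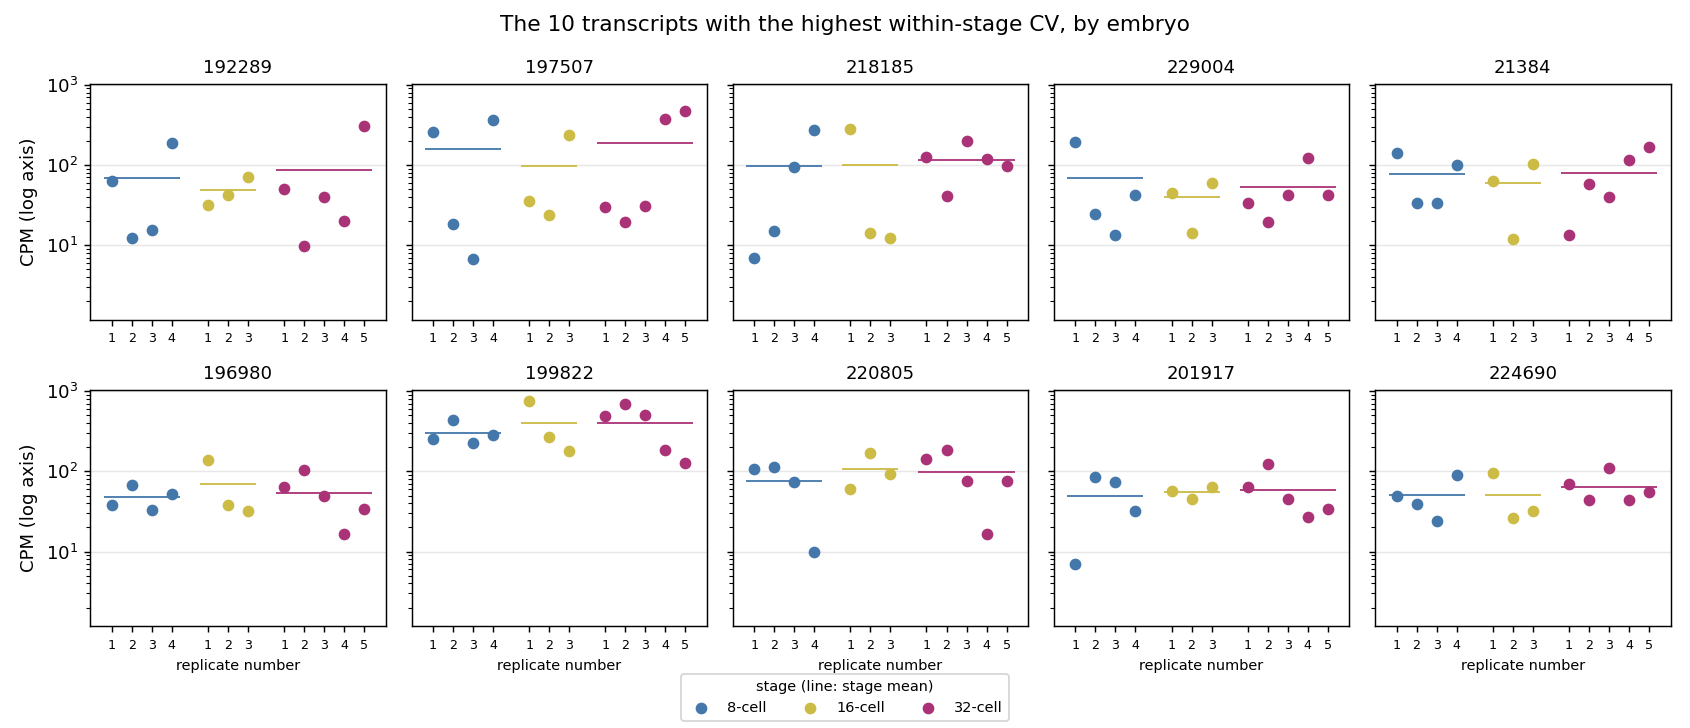
Levels in CPM on a log axis of the 10 transcripts with the highest within-stage CV, 1 point per embryo by replicate number, coloured by stage, with a line at each stage mean. Transcript 197507 has no point between 35.1 and 235.9 CPM, and 192289 has a single embryo at 308.9 CPM at the 32-cell stage.

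A gap of 4-fold or more between neighbouring embryos of a stage, with 1 count added to each count, was found in 8 of the 150 and in 0 of the transcripts not chosen. The gap was at 1 stage in 6 of them, at 2 stages in 218185 and at all 3 in 197507. Counted by stage, 5 transcripts had it among 8-cell, 4 among 16-cell and 2 among 32-cell embryos. A gap of 2-fold or more was found in 49 of the 150 (32.7%) and in 27 of those not chosen (1.28%). These counts follow from the choice by CV. The 6 with a gap at 1 stage were 192289, 229004, 21384, 220805, 73417 and 219867.

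Transcript 219867 was set apart by a single low embryo. It was at 10.5, 121.8, 68.7 and 100.7 CPM in the 8-cell embryos, at 102.1, 92.3 and 63 CPM in the 16-cell embryos, and at 80.5, 122.3, 70.2, 100.3 and 105.8 CPM in the 32-cell embryos. The lowest value rested on 3 counts, and replicate 3 of the 8-cell stage, the next above it, was 6.55 times as high (95% exact interval from counting error 2.04 to 33.5). For 220805 the lowest 8-cell value also rested on 3 counts, and the next embryo was 7.51 times as high (2.36 to 38.3). Both transcripts were chosen by their spread, and the embryos compared are those on either side of the gap. The intervals do not account for that choice and are a description only. Transcript 73417 had 21.3 CPM in replicate 2 of the 16-cell stage, against 137.2 and 97.6 CPM in replicates 1 and 3.

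The variance was largest among 8-cell embryos in 49 of the 150 (32.7%), among 16-cell embryos in 60 (40%) and among 32-cell embryos in 41 (27.3%). Among transcripts not chosen the shares were 43.4%, 26.1% and 30.5%. More than 50% of the summed variance lay among 8-cell embryos in 34 of the 150, among 16-cell embryos in 46 and among 32-cell embryos in 24. Of the 2111 not chosen, 656, 346 and 439 had it there. The median CV within a stage was 0.331, 0.337 and 0.319 in the chosen transcripts and 0.167, 0.13 and 0.157 in those not chosen. The 16-cell stage has 3 embryos, so 1 embryo weighs more there.

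The choice was repeated with 1 stage left out, and the spread was then read at the stage that had no part in it. Of the 150 chosen without the 8-cell stage, 64 were among the 150 described here, and for the 16- and 32-cell stages 87 and 83 were. At the 8-cell stage the median CV was 0.316 in those chosen on the other stages and 0.179 in those not chosen. At the 16-cell stage the medians were 0.231 and 0.133, and at the 32-cell stage 0.286 and 0.17. The level differed as well, and the median counting CV at these stages was 0.22, 0.189 and 0.223 in those chosen and 0.147, 0.126 and 0.161 in those not chosen. Relative to counting error the difference was smaller, with a median ratio of 1.36, 1.22 and 1.28 in those chosen and 1.24, 1.11 and 1.1 in those not chosen. A CV above 2 times the counting CV was found at the left-out stage in 36, 38 and 34 of the 150 chosen, and in 14.5%, 11.5% and 4.06% of those not chosen. Transcript 197507 was among the 3 highest in CV relative to counting error at each left-out stage. With single embryos left out, it stayed chosen in 5 of 12 cases, 192289 and 229004 in 4 each and 218185 in 7. Over the 12 cases the CV was 1.05 to 1.31 in 197507 and 1.01 to 1.32 in 192289. It was 0.679 to 1.15 in 229004 and 0.87 to 1.2 in 218185. All of these lay well above the lowest CV of the 150, 0.295, so the limits on mean level and stage ratio removed them, not the CV.

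**Figure D3:**
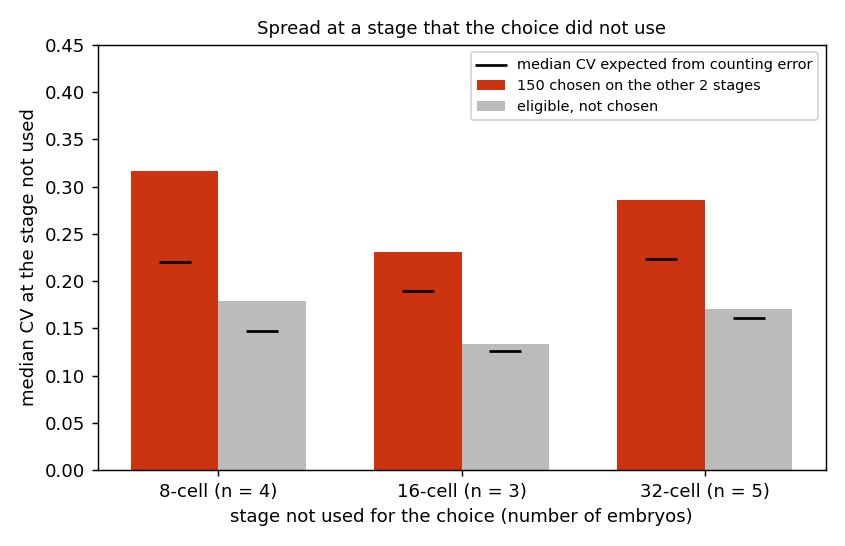
Median CV at the 8-, 16- and 32-cell stage, each read at a stage that was not used for the choice, as bars that start at 0, for the 150 transcripts chosen on the other 2 stages and for the eligible transcripts not chosen. The black marks give the median CV expected from counting error, which is 0.22, 0.189 and 0.223 in those chosen.

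No embryo was extreme for all of the 150. At the 8-cell stage replicate 3 was highest in 50 of them (33.3%, against 29.3% of those not chosen). Replicate 1 was lowest in 48 (32% against 37.8%). At the 16-cell stage replicate 3 was highest in 59 (39.3% against 36.5%) and replicate 2 lowest in 64 (42.7% against 34.7%). Replicate 1 of that stage was highest in 54 (36% against 26.4%) and lowest in 49 (32.7% against 42.6%). At the 32-cell stage replicate 1 was highest in 40 (26.7% against 22.8%). Replicates 4 and 5 were lowest in 39 (26% against 20.7%) and 41 (27.3% against 32.8%). Replicate 2 of the 16-cell stage was highest in 37 (24.7% against 37%). Of the shares given here, those of replicates 1 and 2 of the 16-cell stage differed most from those of transcripts not chosen. The leading axis of the within-stage deviations, taken on log2(CPM + 1), held 28.3% of their variance in the chosen transcripts, and the next axes 17.9% and 12.2%, while the leading axis held 21% in those not chosen. Along it, replicates 1 and 4 of the 8-cell stage (0.28 and 0.37), replicate 3 of the 16-cell stage (0.23) and replicates 4 and 5 of the 32-cell stage (0.27 and 0.43) were on the positive side. Transcript 197507, whose high embryos were these 5, had a part in setting the axis. Replicate 1 of the 16-cell stage was near 0 on this axis (0.04).

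**Figure D4:**
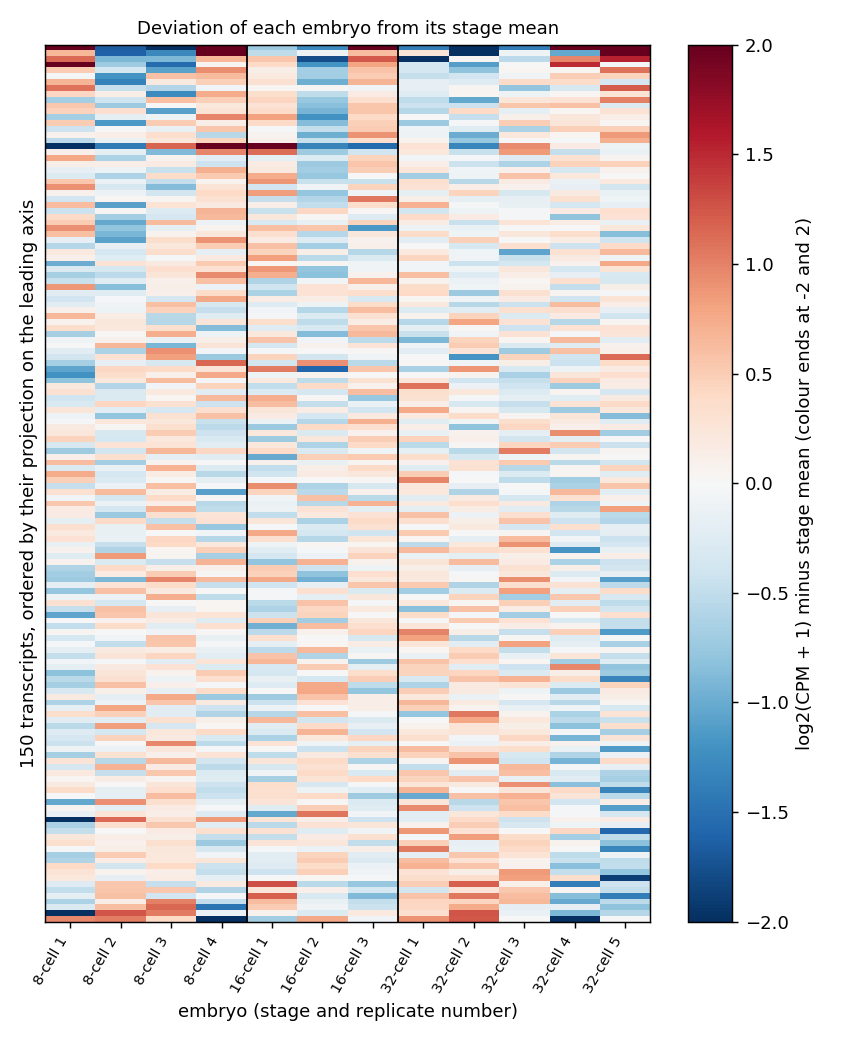
Deviation of log2(CPM + 1) from the stage mean for the 150 chosen transcripts (rows, ordered by their projection on the leading axis) in the 12 embryos (columns, by stage and replicate number), with colours ending at -2 and 2. Over the 12 embryos each row spans at least 2.17-fold in CPM, with a median of 3.17-fold.

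High likeness was not more frequent among pairs of chosen transcripts than among pairs not chosen. Counting error pulls likeness toward 0 by the part of the spread that it makes up. That part was smaller in the chosen transcripts, whose CV was a median of 1.75 times the counting CV, against 1.23 times in those not chosen. The 2 sets of pairs are therefore not on equal terms. The likeness is Pearson's r of stage-centred log2(CPM + 1) over the 12 embryos, a description without a p, and the points share libraries and depths. Over 11175 pairs of the 150, the median r was 0.031, with the 5th and 95th percentiles at -0.53 and 0.59 and a range from -0.94 to 0.92. An r of 0.7 or more was found in 1.95% of pairs of the 150 and in 2.33% of pairs not chosen. An r of 0.9 or more joined 8 of the 150 into 4 pairs, which is 0.0358% of their pairs, against 0.0578% of pairs not chosen. With any 1 embryo left out it joined 12 (without replicate 4 of the 32-cell stage) to 23 (without replicate 1 of that stage). With all embryos the 4 pairs were 145014 with 187213 (r = 0.91), 160634 with 21261 (0.92), 199621 with 208290 (0.92), and 199738 with 206546 (0.91).

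Of these 8, 145014 had the highest CV, 0.45. It was at 69.9, 85.2, 170.7 and 155.8 CPM in the 8-cell embryos, at 114.9, 49.7 and 107.8 CPM in the 16-cell embryos, and at 70.5, 48.9, 119.1, 123.7 and 203.1 CPM in the 32-cell embryos. Its partner 187213 was at 55.9, 73.1, 95.3 and 110.4 CPM, then 105.3, 71 and 124.1 CPM, then 100.7, 56.3, 94.6, 93.6 and 156.6 CPM in the same order. Both were highest in replicate 5 and lowest in replicate 2 of the 32-cell stage. Transcripts 199621 and 208290 were both lowest in replicate 2 at the 8- and 16-cell stages, with 27.4 and 42.6 CPM in 199621 and 79.2 and 87.6 CPM in 208290. In 160634 and 21261 replicate 3 of the 16-cell stage was highest, with 166.8 and 195.2 CPM, and in 199738 and 206546 replicate 1 of that stage was, with 114.9 and 201.0 CPM. Single embryos carried part of this spread, since the CV of 160634 was 0.33 with all embryos and 0.191 without replicate 3 of the 16-cell stage, and that of 199738 was 0.4 and, without replicate 1 of that stage, 0.237.

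Likeness was also measured to 3 of the transcripts over the 7649 transcripts with a mean of 10 CPM or more. The most like 197507 were 194205 (r = 0.93, mean 65.9 CPM, not eligible with a stage ratio of 1.56), 188612 (0.91, mean 38.6 CPM), 187526 (0.90, mean 33.2 CPM) and 190094 (0.90), which is one of the 150 with a CV of 0.508. Of these, 187526 was at 0 CPM in replicate 2 of the 16-cell stage and in replicate 1 of the 32-cell stage. Transcript 190094 was at 94.4, 51.8, 31 and 126.6 CPM in the 8-cell embryos, at 83, 47.4 and 113.9 CPM in the 16-cell embryos, and at 60.4, 44, 79.4, 80.3 and 165.0 CPM in the 32-cell embryos. Its highest embryos matched those of 197507 at each stage, over a narrower range. Before rounding, 3 transcripts had an r of 0.9 or more to 197507 (190094 lay just under it), 21 had 0.8 or more and 30 had -0.8 or less. Of the other chosen transcripts 4 (2.68%) had an r of 0.7 or more, and of those not chosen 0.474% had. The 150 were chosen by the within-stage spread from which r is computed, so a larger share among them can follow from the choice.

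The most like 218185 was 203196 (r = 0.91), which had a stage ratio of 52.5 between its highest and lowest stage. It was at 0, 0, 4.43 and 9.74 CPM in the 8-cell embryos, so its r rests in part on values near 0. The most like of the 150 was 164164 (0.85), at 38.4, 42.6, 73.1 and 120.1 CPM in the 8-cell embryos, at 105.3, 35.5 and 67.1 CPM in the 16-cell embryos, and at 80.5, 44, 58, 46.8 and 42.3 CPM in the 32-cell embryos. It was highest in the same embryos as 218185 at the 8- and 16-cell stages but not at the 32-cell stage. An r of 0.7 or more to 218185 was found in 8 of the other chosen transcripts (5.37%) and in 1.04% of those not chosen. The most like 199822 were 194377 (r = 0.94), 139082 (0.93, mean 915.0 CPM) and 210514 (0.90), none of them eligible, and 3 of the other chosen transcripts (2.01%) had an r of 0.7 or more to it, against 0.616% of those not chosen.

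**Figure D5:**
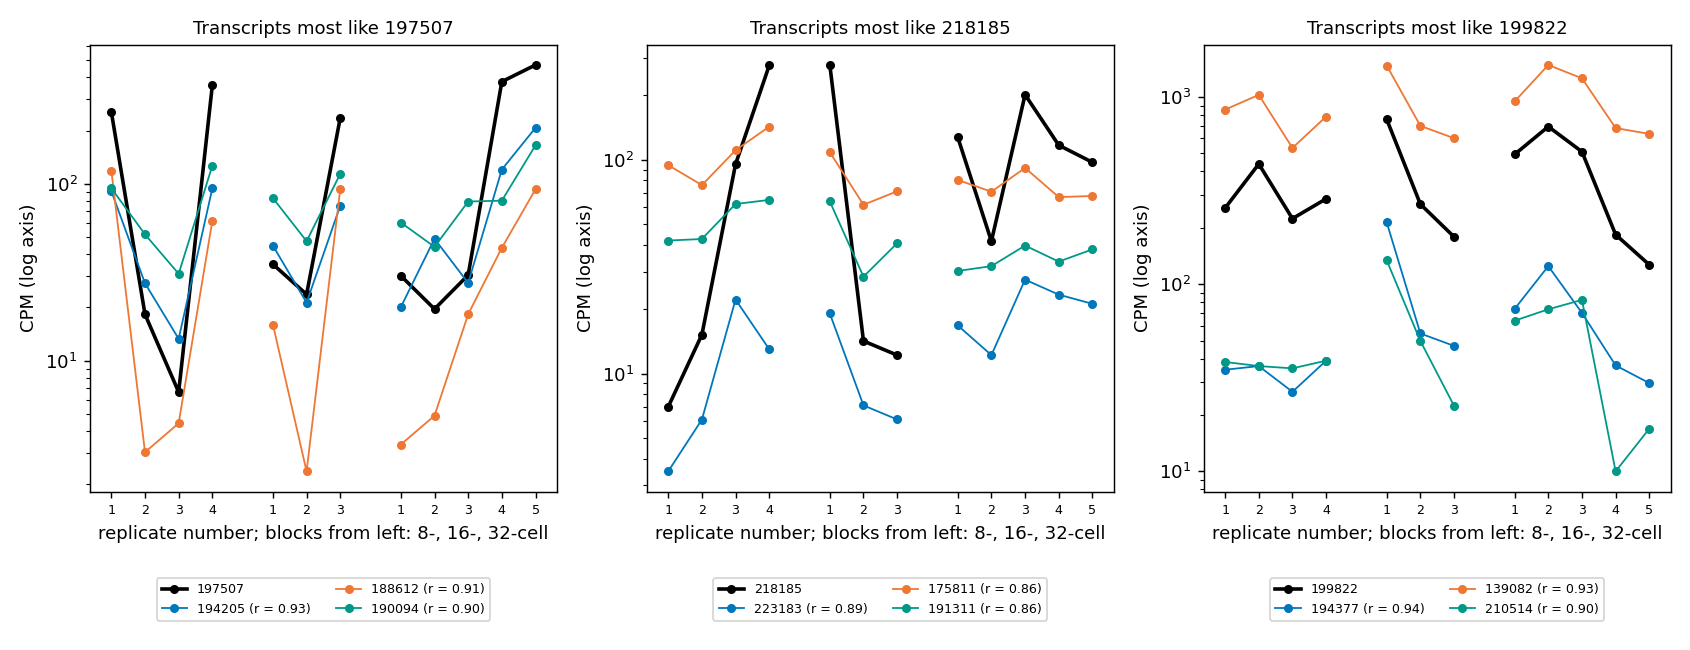
Levels in CPM on a log axis of 197507, 218185 and 199822 (thick black lines) and the 3 most like transcripts with a count in each embryo, by replicate number within the 8-, 16- and 32-cell stages from left to right. Lines only join embryos of a stage and mark no order; 190094 follows 197507 over a narrower range of 31 to 165.0 CPM.

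Positions of the chosen transcripts in the genome were compared. Within 3 gene models, 2 pairs of the 150 were found, namely 218185 and 229229 at 2 steps (r = 0.45), and 169629 and 151128 side by side (r = 0.14). Such pairs were not counted among transcripts not chosen, so the 2 pairs are a description only. The median r of a chosen transcript to the next gene model with a mean of 10 CPM or more was 0.11 over 106 pairs, and 0.042 over 1699 pairs of transcripts not chosen. None of the 4 pairs with an r of 0.9 or more were neighbours.

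The choice required similar stage levels, so a test across stages reads what the rule used, and its count is a description. In edgeR's quasi-likelihood test over the 3 stages, 0 of the 150 passed an adjusted p of 0.05 and 1 had an unadjusted p under 0.05, while 17.2% of the 11854 transcripts tested passed and 29.7% had such a p. DESeq2's likelihood ratio test called 0 of the 150 and gave 0 an unadjusted p under 0.05, while 15.1% of all transcripts were called there and 22.6% had such a p.

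Whether levels followed the depth of an embryo was tested with log2 of the embryo total added to the stages in the same model. The choice did not use the total apart from scaling, but it picked transcripts by the within-stage spread that this test draws on. A larger share among the 150 than among all transcripts can therefore follow from the choice. Of the 150, 1 passed an adjusted p of 0.05, and 0.169% of all transcripts tested did. It was 214140, which fell by 1.56 on the log2 scale per doubling of the total (SE 0.295, adjusted p = 0.0193, edgeR quasi-likelihood test, 12 embryos). It was at 188.7, 118.7, 93.1 and 136.4 CPM in the 8-cell embryos, at 331.9, 132.6 and 132.2 CPM in the 16-cell embryos, and at 194.6, 105.2, 174.0, 140.5 and 177.7 CPM in the 32-cell embryos. The deepest 8- and 32-cell embryos, replicates 3 and 2, had its lowest levels, and the shallowest 16-cell embryo, replicate 1, had its highest. The count was 0 without replicate 3 of the 8-cell stage or without replicate 2 of the 32-cell stage, and 0 with a replicate block. Of all transcripts, 0.0953%, 0.21% and 0.0844% were called in these fits. In DESeq2 only 1 of the 150 kept an adjusted p after its own filtering, and 0 were called there. Of the 593 transcripts that kept one, 9.78% were called. In DESeq2, 10 of the 150 had an unadjusted p under 0.05, and 1.83% of all transcripts had. Without replicate 1 of the 16-cell stage the 1 call was 192289 in place of 214140 (0.311% of all transcripts). Without replicate 3 of that stage 3 were called, namely 190094, 192289 and 197507 (0.271% of all). With all embryos 192289 had an adjusted p of 0.402 in the edgeR test. The fit for 197507 gave a log2 change of -3.22 per doubling of the total (SE 1.43, adjusted p = 1 in edgeR). An unadjusted p under 0.05 was found for 15 of the 150, and for 3.62% of all transcripts tested.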

How the data were processed

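Total RNA of 12 individual embryos was amplified by CEL-Seq and sequenced on 1 lane. The authors demultiplexed the reads, mapped them by Bowtie2, whose version is not given in the sources used here, to the assembly GCA_000328365.1 and counted UMIs with an htseq-count script, and their methods state a binomial conversion to transcript counts. The deposited counts are whole numbers and were used as they stand. The deposited CPM values equal count times 1000000 over the embryo total, within a relative deviation of 4.84e-10. A deposited table of the authors' own likelihood ratio test was not used. How reads shared by near-identical gene copies were counted is not given in the sources used here.

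Stages and replicate numbers came from the sample titles. The rule for the 150 transcripts, the lists and the tests were chosen with earlier results of these data known, and 197507, 218185 and 199822 were picked for likeness after their values were seen. Named transcripts were the 10 with the highest CV, the 3 on either side of the limit, those in pairs with r of 0.9 or more, and, per stage, the 2 with the widest gap. Others were named after their values were seen. Genes with 10 or more summed counts were tested in edgeR 4.0.16 (R 4.3.3; TMM scaling, quasi-likelihood F test, Benjamini-Hochberg adjustment over all genes tested, threshold 0.05) and in DESeq2 1.42.0. Other values were computed in Python 3.11.15. The fits were tested on simulated data. The tables held 0 columns of other samples. Intervals cover counting error only.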

Additional observations from a re-analysis of the deposited data

Results flagged for a closer look

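Of 52 sets of values at the 8- or 32-cell stage that were examined (the 24 named transcripts, the embryo totals and the summed CPM of the 150), 4 held an embryo far from the rest of its stage, and chance gives about 1 in 20. Transcript 192289 was at 308.9 CPM in replicate 5 of the 32-cell stage, and at 9.79 to 50.3 CPM in the others of that stage. Transcript 229004 was at 192.2 CPM in replicate 1 of the 8-cell stage (13.3 to 42.2 CPM in the others) and at 123.7 CPM in replicate 4 of the 32-cell stage (19.6 to 42.7 CPM in the others). Transcript 178563, just outside the limit, was at 87.2 CPM in replicate 1 of the 32-cell stage (51.4 to 56.9 CPM in the others). Transcripts 192289 and 229004 were themselves chosen by their CV, and 178563 was named for its CV rank next to the limit. The 24 named transcripts were picked by CV, gap or likeness, so the rate of 1 in 20 does not apply to them.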

How the results depend on the processing

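Membership moved with the settings. Of the 150, 130 stayed with TMM-scaled CPM, 122 with the SD of log2(CPM + 1) and 115 with counting variance subtracted, but 80 after thinning to the smallest total, 91 after binomial conversion, 40 with a minimum of 25 CPM, 30 with 100 CPM (the number with such a mean), 57 with a tighter limit on the stage ratio and 83 with a limit of 2, and 64, 87 and 83 without the 8-, 16- and 32-cell stage. Leaving out 1 embryo kept 90 (without replicate 3 of the 16-cell stage) to 125, and 5 stayed in all 12 cases. Losses summed to 483, of which 214 were by stage ratio, 223 by CV rank and 46 by mean. Of 72 recomputed CVs of named transcripts under scaling, thinning and conversion, 72 moved by under 1 jackknife SE. Some of these moves were still large, since the CV of 160634 fell from 0.33 to 0.225 after thinning, below the limit of 0.295.

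Across stages, 3 were called with no filter on counts (11.3% of all transcripts) and 0 to 2 with 1 embryo left out. There were 2 without replicate 2 of the 8-cell stage (16.1% of all) and 1 without replicate 1 of the 16-cell stage (17.3% of all). For the embryo total, 7 were called with no filter (0.386% of all) and 0 in DESeq2 (where 1 of the 150 kept an adjusted p). With 1 embryo left out 0 to 3 were called for the total (0.0602% to 0.311% of all). With an 8-fold gap, 2 transcripts remained of the 8, and 6 to 8 had a 4-fold gap with 1 embryo left out. Groups of like pattern held 61 transcripts at r of 0.8, 0 at 0.95 and 12 to 23 with 1 embryo left out. Transcripts with r of 0.8 or more to 197507 numbered 21, and 27 with a pseudocount of 10 CPM and 41 with TMM, both added after seeing the data. The causes were not tested.

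Same-numbered embryos of different stages had a median r of 0.05 over 10 pairs (-0.29 to 0.41). Differently numbered ones had a median r of -0.04 over 37 pairs (-0.38 to 0.4). The 3 pairs of replicate 2 had an r of 0.28, 0.41 and 0.29, and the 3 of replicate 1 had -0.22, -0.07 and -0.08. Those of replicate 3 had -0.29, 0.23 and -0.21, and the pair of replicate 4 had 0.17. Not every embryo correlated best with its own number, so the numbers were not taken to pair the embryos. With a replicate block 0 were called across stages (15.6% of all transcripts) and 0, in place of 1, for the embryo total (0.0844% of all). Most of the 150 had a mean under 100 CPM, where counting error is a large part of the CV.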
